A study of Brassica carinata and Brassica napus and Brassica carinata x Brassica napus with 3 samples.

Results

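Receptor kinases of the CrRLK1L family that guard pollen tubes were compared with their relatives of vegetative growth in floral buds of an interspecific Brassica hybrid and its parents. The members are the assembled sequences whose best Swiss-Prot hit is an Arabidopsis ANXUR1, ANXUR2, BUPS1 (At4g39110), BUPS2 (At2g21480), FERONIA, HERK 1 or THESEUS 1 protein, with a Swiss-Prot score of at least 0.6 of the score of the best hit in Nr. This rule found 51 of 157663 sequences. BUPS1 had 5 of them, ANXUR2 (ANX2) 3, FERONIA 18, HERK1 15 and THESEUS1 10. No sequence had ANXUR1 or BUPS2 as its best hit. Both are close relatives of ANX2 and BUPS1, so a best hit cannot always tell the copies apart, and each pollen gene here may hold reads of its sister gene. The sequence nearest to the score limit was a HERK1 sequence of 206 bases at a ratio of 0.625, and no sequence was left out by it.

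The hybrid is a cross between B. carinata and B. napus, and no cultivar, cross direction or generation is stated for it. The B. carinata parent was the cultivar W29 and the B. napus parent the cultivar Zhongshuang 11. All 3 groups were whole floral buds taken at the initial flowering stage, with 1 RNA-seq library each, and how many plants a library holds is not stated. The libraries held 27.1 M counted reads (M, 1000000) in the hybrid, 28.1 M in B. carinata and 28.2 M in B. napus. The organ identity genes AP3 and PI, which mark petals and stamens, were present in all of them. AP3 had 251 RPKM in the hybrid, 350.02 in B. carinata and 195.7 in B. napus, and PI had 312 RPKM, 291 RPKM and 191 RPKM in that order. AG, also an organ identity gene, was found as 1 sequence and differed more. It had 6.87 RPKM in the hybrid, 12.1 in B. carinata and 2.79 in B. napus. Its ratio of reads over B. napus was 2.46 in the hybrid and 4.33 in B. carinata.

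The CrRLK1L kinases carry malectin-like domains outside the cell and a kinase inside, and they monitor the cell wall. In Arabidopsis, ANXUR1 and ANXUR2 act together with BUPS1 and BUPS2 at the tip of the pollen tube, where they bind the peptides RALF4 and RALF19 and keep the tube from bursting before it reaches the ovule. FERONIA acts in roots, leaves and the synergid cells that receive the tube, HERK1 in cell elongation and in the synergids, and THESEUS1 in sensing damage to the wall. Brassica carinata and Brassica napus are both allotetraploids that share the genome of Brassica oleracea, so a gene can be present in several near-identical copies.

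With 1 library per group no test between groups was possible, and each difference compares libraries and has no replicate check. RPKM are reads per 1000 bases and per 1000000 counted reads. Ratios of reads are ratios of reads per total counted reads with exact binomial 95% intervals given the sum of both reads, and these reflect counting error alone. A sequence or gene was called apart at 2-fold on the log2(RPKM + 1) scale where the higher library reached 5 RPKM. This scale understates the change of low genes. Other scalings move all log2 ratios of a comparison together, before the added 1 RPKM. TMM factors move hybrid over B. carinata by 0.18, hybrid over B. napus by 0.46 and B. carinata over B. napus by 0.28, and median-of-ratios factors move them by -0.31, -0.03 and 0.28. In whole buds, fewer cells of a type and less RNA per cell cannot be told apart.

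By reads per total the pollen members, summed as a class, differed more between the libraries than the summed vegetative members. With TMM factors this did not hold for hybrid over B. napus, at 0.885 for the pollen and 1.26 for the vegetative class. BUPS1 and ANX2 together had 241 reads in the hybrid, 74 reads in B. carinata and 390 reads in B. napus. The pollen members thus took 3.81% of all receptor reads in the hybrid (Clopper-Pearson 95% interval 3.35 to 4.31), 1.11% in B. carinata (interval 0.87 to 1.39) and 5.34% in B. napus (interval 4.83 to 5.88). These shares do not depend on how the libraries are scaled, and their intervals do not overlap. Set against total reads, the pollen members of the hybrid stood at 3.38 times B. carinata (interval 2.597 to 4.45) and at 0.644 times B. napus (interval 0.546 to 0.758). B. carinata stood at 0.19 times B. napus (interval 0.146 to 0.245).

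**Figure D1:**
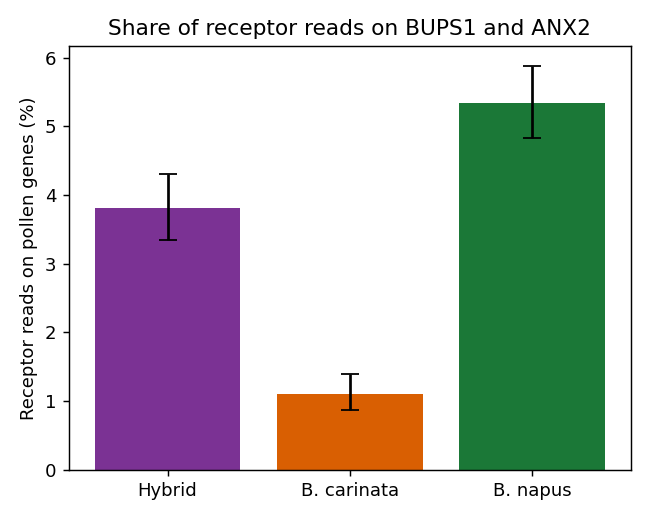
Share of receptor reads (percent, y axis) that fell on BUPS1 and ANX2 in each library (x axis), with Clopper-Pearson 95% intervals as error bars, which cover counting error only. The hybrid stands at 3.81%, between B. carinata at 1.11% and B. napus at 5.34%.

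Summed as a class the vegetative members lay close together, although single genes differed more, as given below. FERONIA, HERK1 and THESEUS1 together had 6088 reads in the hybrid, 6616 reads in B. carinata and 6916 reads in B. napus. Their read ratio was 0.956 for hybrid over B. carinata (interval 0.923 to 0.99), 0.918 for hybrid over B. napus (interval 0.886 to 0.950) and 0.96 for B. carinata over B. napus (interval 0.928 to 0.993). With TMM factors the same ratios were 1.09, 1.26 and 1.16, so the direction of these small differences turns with the scaling. With median-of-ratios factors B. carinata over B. napus was 1.16, and with summed RPKM it was 1.10.

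In summed RPKM over all members the order in all 3 libraries was FERONIA, HERK1, THESEUS1, BUPS1 and ANX2, from high to low. In B. carinata the order of HERK1 and THESEUS1 rests on 4 weak HERK1 matches, without which HERK1 had 19.98 RPKM and lay below THESEUS1. FERONIA had 107 RPKM in the hybrid, 119 in B. carinata and 107 in B. napus. With these matches HERK1 and THESEUS1 were at 32.7 and 27.6 RPKM there. THESEUS1 and BUPS1 were the closest neighbours in the hybrid, at 15.4 and 11.2 RPKM, but most of the BUPS1 value there came from 1 fragment of 292 bases.

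**Figure D2:**
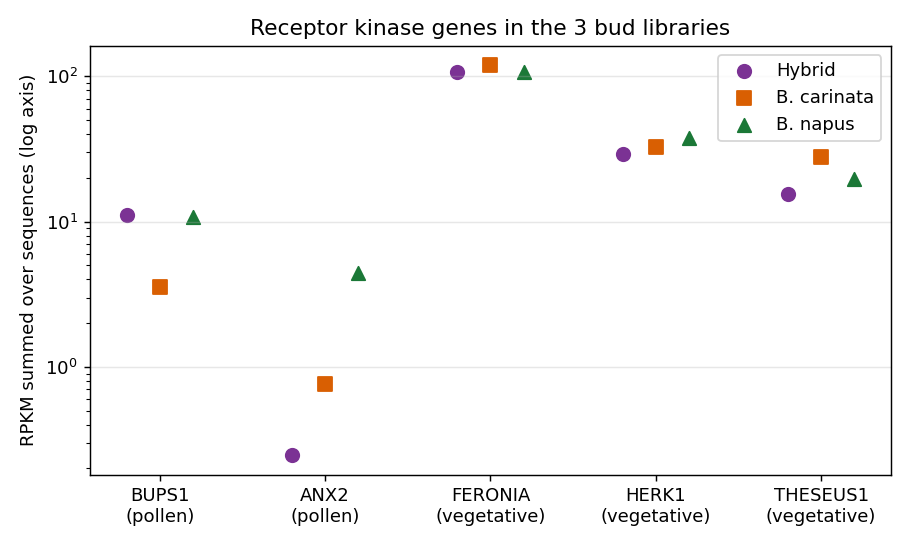
RPKM summed over the sequences of each gene (y axis, log axis) for the 5 genes found (x axis), with 1 point per library and no error bar, since each group has 1 library. The 3 vegetative genes lie within 2-fold in each pair of libraries. BUPS1 is lowest in B. carinata at 3.52 RPKM, and ANX2 is lowest in the hybrid at 0.25 RPKM, on 2 reads.

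BUPS1, a receptor of the pollen tube tip, was the pollen member with most reads. It had 239 reads in the hybrid, 67 reads in B. carinata and 353 reads in B. napus, or 11.2, 3.52 and 10.7 RPKM. The hybrid had 3.71 times the BUPS1 reads of B. carinata (interval 2.82 to 4.93) and 0.706 times those of B. napus (interval 0.596 to 0.834), and B. carinata had 0.19 times those of B. napus (interval 0.144 to 0.248). The value for hybrid over B. napus also depends on the scaling. On the log2(RPKM + 1) scale it was 0.48 with TMM factors in place of 0.06. By reads per total the hybrid was lower than B. napus, while by summed RPKM it was level with it, at a ratio of 1.05.

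That disagreement came from 1 BUPS1 sequence of 292 bases, which had 58 reads in the hybrid, 20 in B. carinata and 26 in B. napus, or 7.33, 2.43 and 3.15 RPKM. It was the only BUPS1 sequence that was higher in the hybrid than in both parents. The other 4 sequences had 181 reads in the hybrid, 47 in B. carinata and 327 in B. napus, and without the fragment BUPS1 summed to 3.85, 1.09 and 7.53 RPKM. The hybrid then had 0.577 times the B. napus reads (interval 0.478 to 0.694) and 4.001 times those of B. carinata (interval 2.89 to 5.64).

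The longest BUPS1 sequence, of 3228 bases, had 98 reads in the hybrid, 15 in B. carinata and 161 in B. napus. On it the hybrid had 6.79 times the reads of B. carinata (interval 3.92 to 12.6) and 0.635 times those of B. napus (interval 0.488 to 0.821). A sequence of 1911 bases had 45, 22 and 80 reads in the hybrid, B. carinata and B. napus, and one of 770 bases had 36, 7 and 67 reads. The fifth, of 559 bases, had 2, 3 and 19 reads in the same order and was the only BUPS1 sequence on which the hybrid lay below both parents. The sequences of 1911, 770 and 292 bases belong to 1 assembly cluster, and whether reads are split among them was not tested.

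ANX2, the second pollen receptor, was close to the limit of detection outside B. napus. It had 2 reads in the hybrid, 7 reads in B. carinata and 37 reads in B. napus, or 0.25, 0.76 and 4.41 RPKM. The read ratio was 0.056 for hybrid over B. napus (interval 0.0066 to 0.218) and 0.19 for B. carinata over B. napus (interval 0.071 to 0.431). Between the hybrid and B. carinata it was 0.297, with an interval of 0.030 to 1.56 that spans equal levels. Its 3 sequences were all short, at 221, 299 and 338 bases. The 338-base sequence had 0 reads in the hybrid, 5 in B. carinata and 19 in B. napus. With 3 reads in place of 0 the hybrid was 6.08-fold lower than B. napus, and the interval of the read ratio reached up to 0.223. A count of 0 allows up to 0.111 reads per 1000000 counted reads in the hybrid.

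BUPS1 and ANX2 thus differed in where the hybrid stood relative to B. napus. The order of ANX2 between the hybrid and B. carinata was not resolved, since its interval spans equal levels. By read ratio BUPS1 in the hybrid lay nearer to B. napus, whereas the 2 reads of ANX2 lay nearer to B. carinata. By difference in RPKM, BUPS1 without its 292-base fragment was not nearer to B. napus. It then had 3.85 RPKM in the hybrid, 1.09 in B. carinata and 7.53 in B. napus. On the called scale, 1 of the 4 receptor genes that reached 5 RPKM was higher in the hybrid than in B. carinata, against 3.30% of all Swiss-Prot genes tested, and that gene was BUPS1. None of the 4 was lower there, against 7.71% of all genes, so 1 of 4 was apart against 11.0%. Without the 292-base fragment BUPS1 was at 3.85 RPKM in the hybrid and 1.09 in B. carinata, under the 5 RPKM needed for this comparison. With median-of-ratios factors THESEUS1 was past the line, at a log2 ratio of -1.09 in place of -0.80. None of 4 was apart between the hybrid and B. napus, against 15.1% of all genes, with 7.66% higher and 7.43% lower. BUPS1 was also the 1 gene of 4 that was lower in B. carinata than in B. napus, against 11.9% of all genes, and none was higher, against 17.2%, which makes 29.1% of all genes apart. With a pseudocount of 5 RPKM both BUPS1 calls were lost, at log2 ratios of 0.93 for hybrid over B. carinata and -0.88 for B. carinata over B. napus. On the BUPS1 sequence of highest mean RPKM alone, the 292-base fragment, B. carinata over B. napus was -0.27. ANX2 did not reach 5 RPKM in any library. The median log2 ratio of the 4 genes was -0.15 for hybrid over B. carinata, -0.15 for hybrid over B. napus and -0.02 for B. carinata over B. napus, where all genes tested had medians of -0.08, 0.01 and 0.08.

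FERONIA, which receives RALF peptides at the cell surface, had 3898 reads in the hybrid, 4080 reads in B. carinata and 3878 reads in B. napus. The read ratio was 0.993 for hybrid over B. carinata (interval 0.950 to 1.04), 1.05 for hybrid over B. napus (interval 1.002 to 1.10) and 1.06 for B. carinata over B. napus (interval 1.01 to 1.10). A single sequence of 1530 bases carried most of these reads and was almost level, at 61.6 RPKM in the hybrid, 56.5 in B. carinata and 55.1 in B. napus. It held 65.5% of the FERONIA reads in the hybrid and 59.7% in B. carinata, against 61.4% in B. napus. On the log2(RPKM + 1) scale the value for hybrid over B. carinata was 0.04 with TMM factors in place of -0.14, and that for hybrid over B. napus was -0.02 with median-of-ratios factors in place of 0.01.

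Several of the other FERONIA sequences were at least 2-fold apart between the parents, in opposite directions. A sequence of 2538 bases had 408 reads in the hybrid, 604 in B. carinata and 183 in B. napus. A sequence of 870 bases went the other way, with 294 reads in the hybrid, 190 in B. carinata and 668 in B. napus. Another, of 1454 bases, had 166, 109 and 235 reads in the hybrid, B. carinata and B. napus, and its Nr hit names only a kinase family protein. In each of these 3 the hybrid lay between its parents. For 11 of the 18 FERONIA sequences the best Nr hit was the Brassica oleracea FERONIA kinase.

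HERK1, a kinase of cell elongation, had 1563 reads in the hybrid, 1574 reads in B. carinata and 2192 reads in B. napus. Of its 15 sequences, 4 matched HERK1 only weakly. They were 999 to 1754 bases long, with Swiss-Prot scores of 68.9 to 70.9, while the 6 HERK1 sequences over 2000 bases scored 1244 to 1407. The weak matches had 313 reads in the hybrid, 569 in B. carinata and 350 in B. napus, and whether they come from HERK1 was not tested. Without them HERK1 had 1250 reads in the hybrid and 1005 in B. carinata, against 1842 in B. napus. The read ratio was then 1.29 for hybrid over B. carinata (interval 1.19 to 1.41), 0.707 for hybrid over B. napus (interval 0.658 to 0.760) and 0.547 for B. carinata over B. napus (interval 0.506 to 0.592). By reads HERK1 thus had the same order as BUPS1. Its differences were smaller in the comparisons with B. carinata, while hybrid over B. napus was near the BUPS1 ratio of 0.706. With all 15 sequences the ratios were 1.03, 0.743 and 0.721. On the log2(RPKM + 1) scale over all 15, directions turned with TMM factors, at 0.02 in place of -0.16 for hybrid over B. carinata and 0.10 in place of -0.35 for hybrid over B. napus. For B. carinata over B. napus the value was 0.08 with both sets of factors in place of -0.19.

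The most read HERK1 sequences did not all share this order. The one of 2376 bases had 291 reads in the hybrid and 324 in B. carinata, against 230 in B. napus. The one of 2828 bases had 234, 120 and 465 reads in the hybrid, B. carinata and B. napus, and the one of 2993 bases 182, 115 and 358 reads. A weak match of 1700 bases had more reads than that one in the hybrid and in B. carinata, with 193 reads in the hybrid, 429 in B. carinata and 161 in B. napus.

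THESEUS1, which senses damage to the wall, was lower by reads in the hybrid than in either parent. It had 627 reads in the hybrid, 962 reads in B. carinata and 846 reads in B. napus, or 15.4, 27.6 and 19.5 RPKM. The hybrid had 0.677 times the reads of B. carinata (interval 0.611 to 0.750) and 0.773 times those of B. napus (interval 0.696 to 0.858). With TMM factors the log2 ratio of hybrid over B. napus was 0.12 in place of -0.32, so its direction turns with that scaling. B. carinata had 1.14 times the reads of B. napus (interval 1.04 to 1.25).

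A THESEUS1 sequence of 2753 bases held 77.4% of the gene's reads in the hybrid, 63.7% in B. carinata and 78.3% in B. napus, with 485, 613 and 662 reads. The 667-base sequence had 40 reads in the hybrid and 58 in B. carinata, against 138 in B. napus. The sequences of 1238 and 1027 bases were skewed to the other parent, with 33, 133 and 9 reads and 28, 63 and 14 reads in the hybrid, B. carinata and B. napus. Of the THESEUS1 sequences, 8 shared an assembly cluster with 6 FERONIA sequences, and whether reads are shared between them was not tested.

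Within each vegetative gene the sequences differed in which parent had more of their reads. Sequences with at least 10 reads in a parent were sorted by whether B. carinata or B. napus had at least 2 times the reads of the other per total. This sorting uses the parental reads, so the parental values that follow describe it. Of the vegetative sequences, 13 were higher in B. carinata, 13 were higher in B. napus, 10 lay within 2-fold and 7 had fewer reads. Of all sequences with at least 10 reads in a parent, 43.5% were of the first kind and 34.7% of the second. Of the pollen sequences, none was higher in B. carinata and 6 were higher in B. napus, with 1 within 2-fold and 1 with fewer reads.

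The hybrid carried both kinds of vegetative sequences at intermediate levels. The 13 that were higher in B. carinata summed to 36.5 reads per 1000000 counted reads (RPM) in the hybrid (exact Poisson 95% interval 34.2 to 38.8) and 66.2 in B. carinata (interval 63.3 to 69.3), against 16.5 in B. napus (interval 15.04 to 18.1). The 13 that were higher in B. napus summed to 46.5 RPM in the hybrid (interval 44.0 to 49.2), 26.5 in B. carinata (interval 24.6 to 28.4) and 89.3 in B. napus (interval 85.8 to 92.8). In each set the hybrid lay between its parents on 12 of the 13 sequences, against 87.4% of all sequences that were higher in B. carinata and 84.9% of all that were higher in B. napus, so these counts are near the background. The 10 sequences within 2-fold had 140.7 RPM in the hybrid, 141.5 in B. carinata and 138.2 in B. napus.

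**Figure D3:**
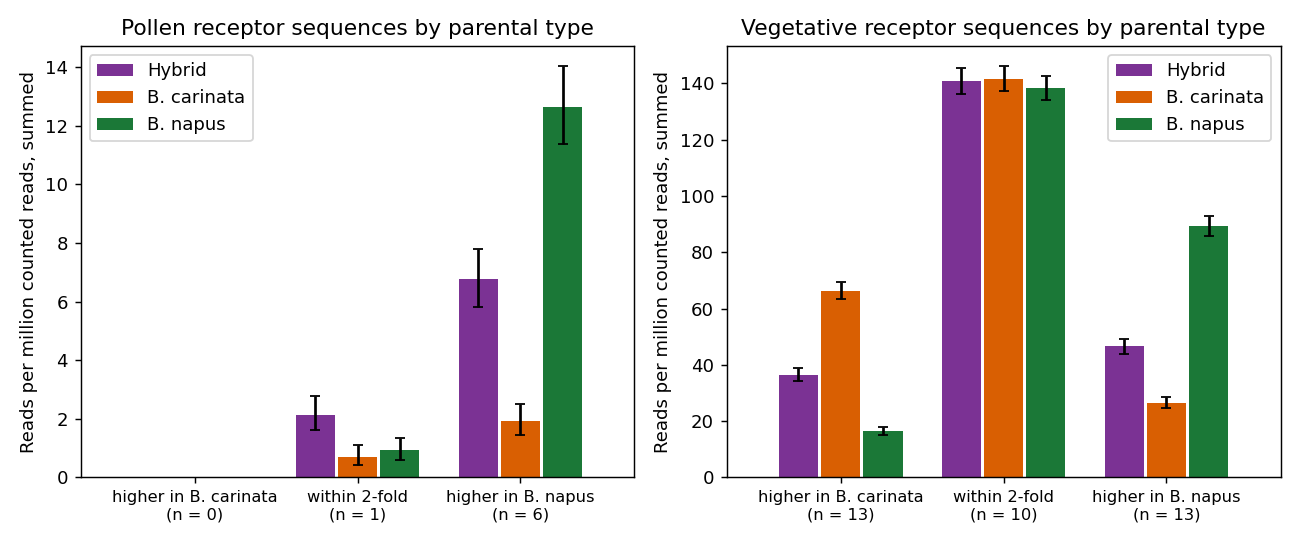
Summed reads per 1000000 counted reads, RPM (y axis) of pollen sequences (left) and vegetative sequences (right), sorted by the parent in which they were higher (x axis, with the number of sequences), in the 3 libraries. Error bars are exact Poisson 95% intervals. The hybrid bar lies between the parental bars for both kinds of skewed vegetative sequences, and no pollen sequence fell into the kind that was higher in B. carinata.

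The reads of the B. carinata type were set against B. carinata by gene. Relative to B. carinata, the hybrid had 0.636 times the reads for 6 FERONIA sequences (interval 0.578 to 0.699), 0.464 times for 2 HERK1 sequences (interval 0.390 to 0.549) and 0.337 times for 5 THESEUS1 sequences (interval 0.263 to 0.430). The weak match of 1700 bases holds 429 of the B. carinata reads of this HERK1 set, and the other sequence, with 6 reads in the hybrid and 17 in B. carinata, has a ratio of 0.367 (interval 0.118 to 0.975). The interval of FERONIA lies above that of THESEUS1. For the B. napus type the intervals of FERONIA, HERK1 and BUPS1 overlap. Relative to B. napus, the hybrid had 0.524 times the reads for 7 FERONIA sequences (interval 0.471 to 0.583), 0.542 times for 5 HERK1 sequences (interval 0.494 to 0.594) and 0.577 times for 4 BUPS1 sequences (interval 0.478 to 0.694). The 1 THESEUS1 sequence of this type stood apart at 0.302 (interval 0.207 to 0.432), and the 2 ANX2 sequences at 0.0695 (interval 0.00805 to 0.274).

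Some sequences were seen in 1 parent only. Of the 51 sequences, 8 had 0 reads in B. napus, and 7 of these had reads in the hybrid. Of all sequences, 32.1% had 0 reads in B. napus, and 67.9% of those had reads in the hybrid. The 8 receptor sequences together had 145 reads in the hybrid and 377 in B. carinata, a ratio of 0.40 (interval 0.328 to 0.485). The FERONIA sequence of 319 bases was the most read of them, with 81 reads in the hybrid, 199 in B. carinata and 0 in B. napus, which makes it at least 28.1-fold higher in the hybrid relative to B. napus with a floor of 3 reads. A count of 0 allows 0.106 reads per 1000000 counted reads in B. napus. In B. carinata 3 receptor sequences had 0 reads, with 4 reads in the hybrid and 19 in B. napus together, and 2 of them had reads in the hybrid. Of all sequences, 20.3% had 0 reads in B. carinata, and 52.6% of those had reads in the hybrid.

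Counted sequence by sequence on the called scale, the family was close to the rest of the table. Between the parents 7 of 11 sequences with at least 5 RPKM were apart, against 74.8% of all sequences, 4 higher in B. carinata (41.8% of all) and 3 lower (33.0% of all). Between the hybrid and B. carinata 3 of 9 were apart, against 36.6%, with 1 higher (19.0% of all) and 2 lower (17.6% of all). Between the hybrid and B. napus 4 of 9 were apart, against 43.6%, with 2 higher (28.1% of all) and 2 lower (15.6% of all). In both comparisons only 1 pollen sequence could be tested, the 292-base BUPS1 fragment, and it was higher in the hybrid in each. Of the 12 sequences that reached 5 RPKM in any library, the hybrid lay between both parents on 7 (58.3%), against 78.3% of all sequences. Only 12 of the 51 reached this level, and over all 51 the hybrid lay between its parents on 35, below both on 11 and above both on 5. It lay between them on 72.7% of all sequences in the table.

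The partners of the receptors were examined by role. The list of 45 genes covers other CrRLK1L kinases, co-receptors, RALF peptides, leucine-rich repeat extensins, cytoplasmic kinases, NADPH oxidases, exchange factors of ROP GTPases and NORTIA. A best hit was found for 29 of them. No best hit was found for the co-receptors LLG1, LLG2 and LLG3, the cytoplasmic kinases MARIS and RIPK, the pollen oxidases RBOHH and RBOHJ, MEDOS2 and 8 of 9 exchange factors, and nothing is drawn from that. Many hits were weak, so the values of partner genes given here are those of sequences scoring at least 0.1 per base, a limit set after the data had been seen. Over such sequences 22 genes reached 5 RPKM. Of 21 genes tested between the hybrid and B. carinata, 1 was higher and 1 lower, against 3.23% and 7.70% of all genes, or 10.9% in either direction. Between the hybrid and B. napus 2 of 22 were higher and 6 lower, against 7.40% and 7.55% (14.9% in either direction), and between B. carinata and B. napus 3 were higher and 6 lower, against 17.0% and 11.8% (28.8% in either direction). With all hits kept, the counts were 1 and 1 of 22, 1 and 5 of 24, and 3 and 7 of 24, and the genes called differ in part. The median log2 ratios of the list were -0.05, -0.21 and -0.21 in these comparisons, where all genes had -0.07, 0.01 and 0.07. The partner genes were not recomputed with other scalings.

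The peptides of pollen were nearly absent outside B. napus. RALF4, the ligand of the pollen receptors, had 4 reads in the hybrid, 4 reads in B. carinata and 788 reads in B. napus, or 0.22, 0.21 and 42.8 RPKM. Its read ratio was 0.0053 for hybrid over B. napus (interval 0.0014 to 0.0136) and 0.0051 for B. carinata over B. napus (interval 0.0014 to 0.0131). RALF19, its redundant partner, had 2 reads in the hybrid, 1 in B. carinata and 39 in B. napus. RALF4 thus separated the hybrid from B. napus far more than BUPS1 did, whose ratio was 0.706.

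The other peptides of the list were present in all 3 libraries. RALF33 had 69.9 RPKM in the hybrid, 72.8 in B. carinata and 77.5 in B. napus, and RALF34, a ligand of THESEUS1, had 132, 129 and 93.1 RPKM in that order. RALF23, a ligand of FERONIA, had 46.8 RPKM in the hybrid, 61.0 in B. carinata and 27.0 in B. napus. RALF1, the best known ligand of FERONIA, had 6.45 RPKM in the hybrid, 14.6 in B. carinata and 9.13 in B. napus, and it was the 1 gene of the list that was called lower in the hybrid than in B. carinata.

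**Figure D4:**
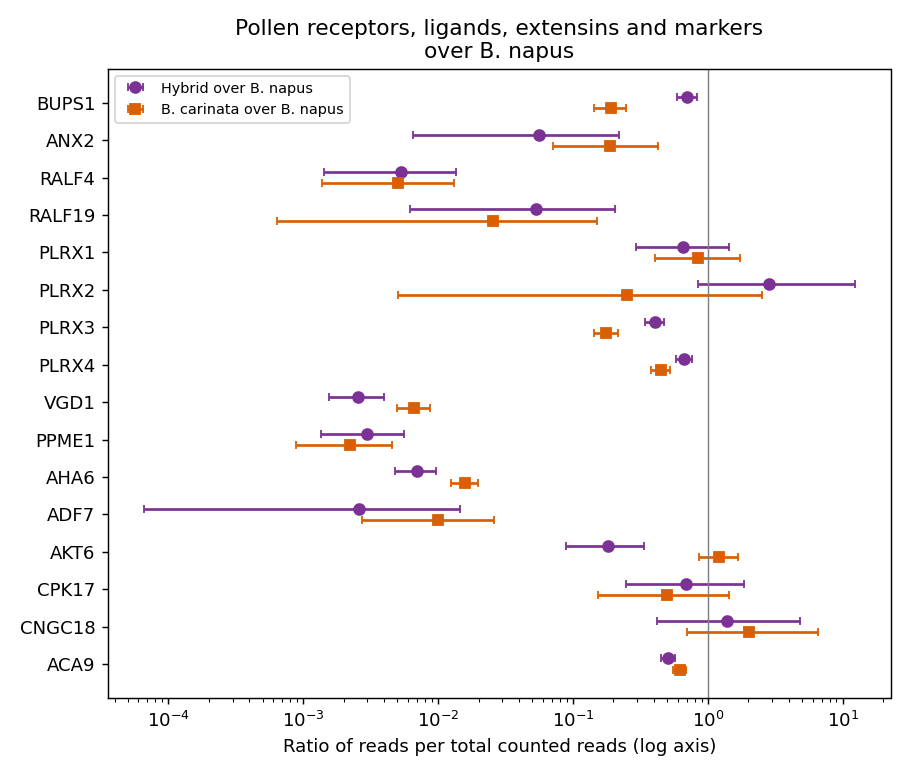
Ratio of reads per total counted reads over B. napus (x axis, log axis) for pollen receptors, pollen peptides, pollen-specific extensins (PLRX) and mature pollen markers (y axis), in the hybrid and in B. carinata, with 95% intervals from the exact binomial. Only sequences scoring at least 0.1 per base are counted. BUPS1 of the hybrid lies at 0.706, while RALF4, VGD1, PPME1, AHA6 and ADF7 lie below 0.02 in both.

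Extensins with leucine-rich repeats anchor RALF peptides in the wall. Of the pollen-specific ones, PLRX3 had 233 reads in the hybrid, 106 in B. carinata and 602 in B. napus, a ratio of 0.403 for hybrid over B. napus (interval 0.345 to 0.470) and of 2.28 for hybrid over B. carinata (interval 1.81 to 2.90). PLRX4 had 325 reads in the hybrid, 227 in B. carinata and 507 in B. napus. Over these sequences both had the order of BUPS1 by reads, but 67.7% of the PLRX3 reads lie on weak matches. With all hits PLRX3 had 720 reads in the hybrid and 1363 in B. carinata, against 827 in B. napus. Its ratio of hybrid over B. carinata was then 0.549 (interval 0.501 to 0.601), so the direction turns, and it was not called apart in any comparison. Over the stronger matches in RPKM PLRX3 had 13.5 in the hybrid, 14.04 in B. carinata and 31.2 in B. napus, so that order was not seen there. PLRX1 and PLRX2 had 96.1% and 92.7% of their reads on weak matches and did not reach 5 RPKM without them. Of the vegetative ones, LRX3 had 336 RPKM in the hybrid, 454 in B. carinata and 252 in B. napus, and LRX5 had 175, 169 and 59.5 RPKM, although its reads differed little, at 4652, 4054 and 4120. LRX4 had 31.2, 32.2 and 23.4 RPKM, LRX1 had 8.04, 11.6 and 13.4 RPKM, and LRX2, the 1 gene of the list that was called higher in the hybrid than in B. carinata, had 7.06, 2.52 and 18.2 RPKM in that order. With all hits LRX2 was not called between the hybrid and B. carinata, at a log2 ratio of 0.44, and the 1 gene called higher there was PLRX1, at 1.24.

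Of the 6 other CrRLK1L kinases that reached 5 RPKM, 1 was called higher and 1 lower in the hybrid relative to B. napus. Over all genes 7.40% were higher and 7.55% lower. These were CVY1 and MEDOS1, and they had the same calls in B. carinata relative to B. napus, where 17.0% and 11.8% of all genes were called. HERK2, a relative of HERK1, had 10.6 RPKM in the hybrid, 13.9 in B. carinata and 7.57 in B. napus. CVY1, which acts in cell shape, had 12.5, 20.2 and 4.39 RPKM in that order and was called higher in the hybrid relative to B. napus, after 32 weak matches among its 44 sequences were left out. With all hits that call was lost, and the read ratio was 0.939 (interval 0.825 to 1.07) in place of 1.63. MEDOS1, of a cluster linked to metal responses, had 16.8 RPKM in the hybrid and 14.5 in B. carinata, against 36.7 in B. napus. The kinases At5g39030, At5g24010 and At2g23200 lay within 2-fold in all comparisons, at 14.4, 19.1 and 14.8 RPKM in the hybrid. ANJEA, ERULUS and At5g39020 stayed under 5 RPKM.

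Of the downstream partners, the NADPH oxidases stood out. RBOHD, which makes reactive oxygen in immune and wall signalling, had 15.5 RPKM in the hybrid, 16.6 in B. carinata and 41.1 in B. napus, and RBOHF had 5.26, 5.48 and 18.9 RPKM in that order. Both were called lower in the hybrid than in B. napus and lower in B. carinata than in B. napus. The log2 ratios of RBOHD were -1.35 and -1.26 in these comparisons, which TMM factors move by 0.46 and 0.28. Its calls may therefore not hold with that scaling, which was not run for partner genes. The co-receptor LORELEI, which chaperones FERONIA, had 112.5 RPKM in the hybrid, 73.4 in B. carinata and 130.5 in B. napus, and its best hits may include the unmatched LLG genes. ROPGEF1, the exchange factor downstream of FERONIA, had 44.0, 33.98 and 53.2 RPKM. NORTIA, a synergid protein that depends on FERONIA, had 5 reads in the hybrid, 0 in B. carinata and 11 in B. napus once its weak match was left out.

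**Figure D5:**
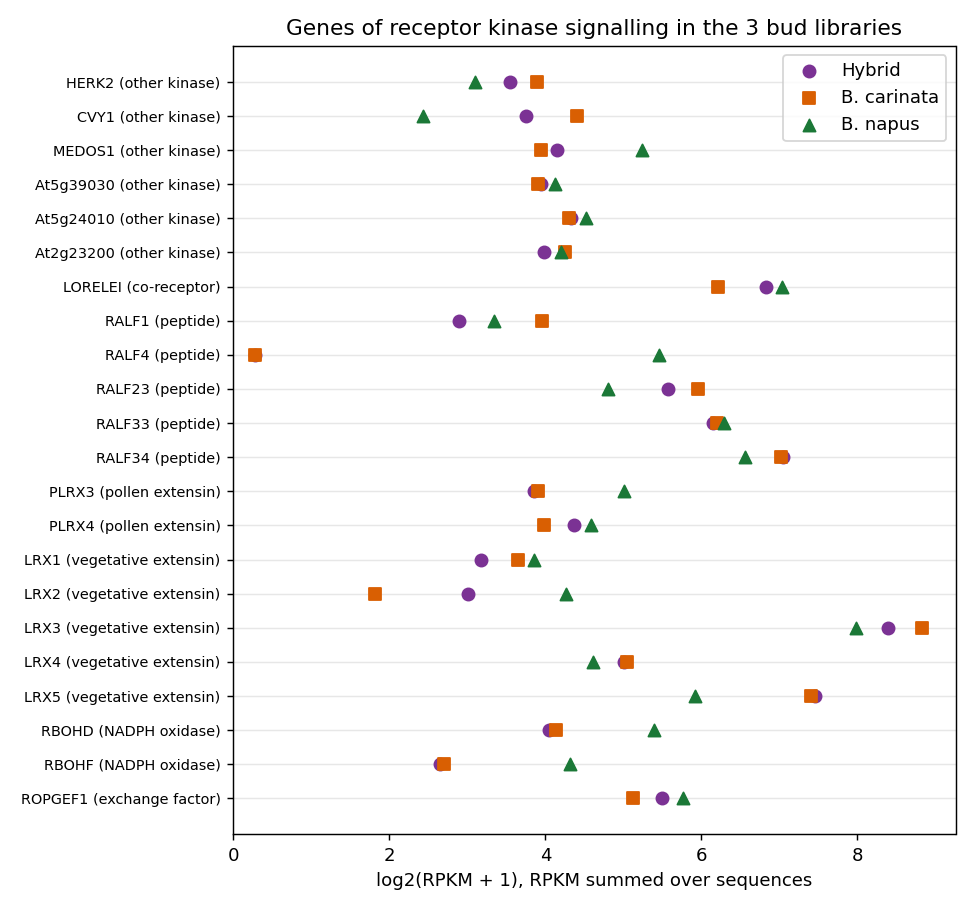
Level as log2(RPKM + 1) (x axis) of the 22 partner genes that reached 5 RPKM (y axis, with their roles), with 1 point per library and no error bar. RALF4 shows the widest gap, with 0.22 RPKM in the hybrid and 0.21 in B. carinata, against 42.8 in B. napus, and most other genes lie close together.

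Markers of mature pollen were set beside the pollen receptors. Of 10 markers 8 were found, and they summed to 36.2 RPKM in the hybrid and 52.7 in B. carinata, against 635 in B. napus. VGD1 and PPME1, pectin methylesterases of the pollen tube, were at 1.16 RPKM (VGD1) and 0.50 RPKM (PPME1) in the hybrid. They were at 2.78 and 0.28 RPKM in B. carinata, against 382 and 127 RPKM in B. napus. AHA6, a proton pump, stood at 0.38, 0.99 and 55.5 RPKM, and ADF7, which binds actin, at 0.07, 0.24 and 22.0 RPKM in that order. VGD1, PPME1, AHA6 and ADF7 were therefore near 0 in both the hybrid and B. carinata, while the BUPS1 reads of the hybrid were 3.71 times those of B. carinata. The potassium channel AKT6 had 0.96, 6.89 and 5.51 RPKM and the calcium pump ACA9 21.2, 29.5 and 33.6 RPKM. CNGC18 had 0.97, 1.40 and 0.70 RPKM, and CPK17 had 96.9% of its reads on weak matches. Without weak matches the 8 markers summed to 26.3 RPKM in the hybrid and 42.9 in B. carinata, against 627 in B. napus, and their part in the receptor levels was not tested. MYB98, which marks synergids, had 1, 21 and 3 reads in the hybrid, B. carinata and B. napus.

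Genes with a pattern like the receptors were sought among 7776 Swiss-Prot genes with at least 5 RPKM in the highest library, by the distance in the log2 ratios of hybrid over B. carinata and hybrid over B. napus. With 3 libraries this rests on only 2 ratios. Nearest to the summed pollen receptors were the pentatricopeptide repeat protein At4g08210, ureide permease 5, glycerophosphoryl diester phosphodiesterase 3, the BTB/POZ protein At5g48800 and the mismatch repair protein MSH4, at distances of 0.0417 to 0.0719. MSH4 had 38.4 RPKM in the hybrid, 14.9 in B. carinata and 50.5 in B. napus. Nearest to the vegetative receptors were potassium transporter 6, a dehydroquinate dehydratase and shikimate dehydrogenase, UDP-glycosyltransferase 71C5, methionine sulfoxide reductase A3 and formin-like protein 7, at distances of 0.00604 to 0.0193.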

How the data were processed

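RNA from floral buds was sequenced in 1 library per group. The authors deposited, per the file headers, a raw count and an RPKM value of every assembled sequence in each library, with the length and the best hits and their scores in Nr, Nt and Swiss-Prot. The deposited counts add up to the header totals (27.1 M reads in the hybrid, 28.1 M in B. carinata, 28.2 M in B. napus). All deposited RPKM (100%) equalled count over length and total within 6e-05. The deposited score of a hit was used to choose members and to set weak matches apart (under 0.1 per base, a limit chosen after seeing the data). Assembler, aligner, counter and search program: not given in the sources used here. Sequences themselves were not used here.

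Counts and RPKM were summed over the sequences of a gene. Summed RPKM weighs short fragments more than summed reads do, so both are given. No test was possible with 1 library per group. Ratios have exact conditional binomial intervals, shares Clopper-Pearson intervals and levels exact Poisson intervals (95%). All cover counting error only, and without molecular identifiers reads do not stand for independent molecules. Fold values for a count of 0 replace it by 3 reads in that library and take the other count as exact. The members and lists were chosen with earlier results of these data known. The text names all receptor genes, up to 4 sequences of each by reads, list genes with at least 5 RPKM, and the 5 nearest genes. Others it names for small counts or to complete a list, and these were chosen after their values were seen. The green-cell and tapetum markers LHCB3, RBCS-1A and A9 were not matched by name. edgeR 4.0.16 (R 4.3.3) gave the TMM factors. The rest was computed in Python 3.11.15 with SciPy 1.17.1, pandas 2.3.3 and numpy 2.4.6, and drawn with matplotlib 3.10.9. The calling rule and the intervals were tested on simulated data with counting error alone. Planted changes and interval coverage were checked only on sequences at higher levels than the pollen members. That check therefore does not cover counts as low as those of BUPS1 and ANX2. Alternatives were other score limits, minimum lengths and levels, pseudocounts, summed RPKM and other scaling factors.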

Additional observations from a re-analysis of the deposited data

How the results depend on the processing

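The order of the pollen share, with the hybrid between B. carinata and B. napus, was kept in all alternatives run. It was 6.99%, 2.34% and 8.46% in the hybrid, B. carinata and B. napus with summed RPKM, and 2.99%, 0.759% and 4.61% over sequences of at least 500 bases. The pollen read ratio of hybrid over B. napus was 0.885 with TMM factors and 0.524 without BUPS1 sequences under 300 bases. That of hybrid over B. carinata was 6.79 on the longest BUPS1 sequence alone. That of B. carinata over B. napus was 0.284 with summed RPKM, 0.144 over sequences of at least 500 bases and 0.0935 on the longest BUPS1 sequence. The vegetative ratio of hybrid over B. carinata was 0.849 with summed RPKM, 0.994 over sequences of at least 500 bases, 0.771 with median-of-ratios factors and 0.992 without the weak HERK1 matches, and it turned to 1.09 with TMM factors. That of hybrid over B. napus turned to 1.26 with TMM factors. That of B. carinata over B. napus was 0.912 over sequences of at least 500 bases, 0.907 over sequences with a read in all 3 libraries and 0.924 without the weak HERK1 matches, and it turned to 1.10 with summed RPKM, 1.16 with TMM factors and 1.16 with median-of-ratios factors. The turns with TMM and median-of-ratios factors follow from the shift of the scale, and the cause of the others was not tested.

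Counts of sequences apart changed with the limits. For hybrid over B. carinata the 1 pollen sequence became 0 with a pseudocount of 5 RPKM and 2 with a minimum of 1 RPKM or none, and the 2 vegetative ones became 0, 5 and 5, and 1 with TMM factors. For hybrid over B. napus the 1 pollen sequence became 0 with a pseudocount of 5 RPKM or median-of-ratios factors and 3 with a minimum of 1 RPKM or none, and the 3 vegetative ones became 1, 7 and 7 with the pseudocount of 5 RPKM, the minimum of 1 RPKM and none. For B. carinata over B. napus the pollen count of 0 became 3 with a minimum of 1 RPKM or none, and the 7 vegetative ones became 3 with a pseudocount of 5 RPKM and 18 with a minimum of 1 RPKM or none. The alternatives without BUPS1 sequences under 300 bases, without weak matches and on the longest BUPS1 sequence alone were chosen after seeing the data.

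No paired analysis was possible because each group has 1 library, and leaving out a library leaves none in its group. At these depths ANX2, RALF4 and RALF19 rest on 1 to 7 reads each in the hybrid and B. carinata, and differences between those libraries were not detectable for them.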

Other observations

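The RALF peptide family was also examined beyond the list, after its values had been seen. Swiss-Prot best hits covered 18 RALF genes, 12 of them outside the list, and 10 of these 12 reached 5 RPKM. Of these 10, 5 were lower in the hybrid than in B. napus and none was higher, against 7.43% lower among all Swiss-Prot genes, and 6 were lower in B. carinata than in B. napus, against 11.9%. RALF9 had 1.84 RPKM in the hybrid, 4.73 in B. carinata and 99.8 in B. napus. RALF17 had 0.689, 0.135 and 78.3 RPKM, RALF13 had 1.51, 1.24 and 60.1 RPKM, and RALF15 had 0.915, 2.12 and 54.2 RPKM in that order. RALF26 was lower with fewer reads, at 1.04, 1.33 and 5.96 RPKM. Others of the family were present in all libraries, such as RALF24 with 31.1 RPKM in the hybrid, 34.8 in B. carinata and 29.8 in B. napus, RALF22 with 21.4, 18.5 and 28.4 RPKM, and RALF31 with 25.5, 17.7 and 17.03 RPKM. RALF27 had 34.8 RPKM in the hybrid, 24.2 in B. carinata and 60.5 in B. napus and was called lower in B. carinata. RALF36 had 0 reads in the hybrid and in B. carinata and 39 reads in B. napus.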
